A study of Mus musculus with 12 samples.

Results

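The 8 genes described here, Dclk1, Trpm5, Avil, Rgs13, Sh2d6, Ltc4s, Alox5ap and Pou2f3, are known as sensors, leukotriene genes, regulators or markers of tuft cells. They were taken by name, and all 8 were found among the 20090 genes of 1 table of mouse small intestinal epithelium. The table came from the diet samples of the study, 8 of its 12 samples, which held cells of adult Lgr5DTR-GFP mice sorted as CD45-negative and EpCAM-positive. In that strain the stem cell gene Lgr5 carries a diphtheria toxin receptor joined to GFP, and every sample shares it. The labels name no diet, so diets were not compared. Tissue was cut into 30 equal pieces whose cells were tagged before pooling (MULTI-seq), but the tag of a cell was not used here. Samples of total epithelium and of sorted progenitors were not analysed here.

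Tuft cells are rare epithelial cells that taste the gut lumen through G protein-coupled receptors and a calcium-gated cation channel, and that signal to immune cells beneath the epithelium. In mice they are the main epithelial source of interleukin 25 and release cysteinyl leukotrienes during infection with helminths. Leukotriene synthesis starts when a phospholipase frees arachidonic acid, which the protein encoded by Alox5ap hands to the 5-lipoxygenase Alox5. The product, leukotriene A4, is then joined to glutathione by leukotriene C4 synthase, encoded by Ltc4s, or is hydrolysed to leukotriene B4 by Lta4h. Pou2f3 is the transcription factor that tuft cells need to form, Trpm5 is the cation channel of the taste cascade, and Rgs13 belongs to a family that shortens G protein signals. Dclk1 is a microtubule-binding kinase used as a tuft cell marker, Avil encodes the actin-bundling protein advillin, and Sh2d6 encodes a protein with an SH2 domain.

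All 8 are protein-coding genes in the GENCODE annotation of the mm10 genome. Dclk1 lies at chr3:55242364-55539068, Trpm5 at chr7:143069153-143094642, Avil at chr10:127000709-127020994 and Rgs13 at chr1:144138654-144177372. Sh2d6 lies at chr6:72513641-72521707, Ltc4s at chr11:50236461-50238616, Alox5ap at chr5:149264767-149288153 and Pou2f3 at chr9:43123939-43210369. Rgs13, Sh2d6 and Pou2f3 overlap no other annotated gene. Trpm5 overlaps Tssc4, Avil overlaps Tsfm and Ltc4s overlaps Gm26542, each on the opposite strand. Dclk1 and Alox5ap overlap several short predicted genes. Strand use in the counting was not given in the sources used here, so reads of these partners could not be told apart.

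The sequence just before the start of a gene is shown for 3 members because their cell patterns differ most in the results. Rgs13 was highest in tuft-like cells, Avil was high in tuft-like and stomach-like cells, and Ltc4s was high in tuft-like and enterocyte-like cells. The sequences are from RefSeq (GRCm38.p6) and run 5′ to 3′ on the strand of the gene. They lie at chr1:144177373-144177622 (minus strand), chr10:127000459-127000708 (plus strand) and chr11:50238617-50238782 (minus strand, ending where the GENCODE gene begins and lying over Gm26542). Capitals mark the motif AGATAA, to which GATA-family factors bind.
Rgs13: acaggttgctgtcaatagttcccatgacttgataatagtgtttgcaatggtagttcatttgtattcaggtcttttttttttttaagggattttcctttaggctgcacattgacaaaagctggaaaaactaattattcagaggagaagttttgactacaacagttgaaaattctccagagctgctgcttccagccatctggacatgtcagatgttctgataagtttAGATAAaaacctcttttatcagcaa
Avil: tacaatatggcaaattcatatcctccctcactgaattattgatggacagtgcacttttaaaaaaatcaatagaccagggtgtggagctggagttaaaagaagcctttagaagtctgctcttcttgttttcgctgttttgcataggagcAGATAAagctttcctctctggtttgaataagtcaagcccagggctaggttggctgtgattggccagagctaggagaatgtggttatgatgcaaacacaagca
Ltc4s: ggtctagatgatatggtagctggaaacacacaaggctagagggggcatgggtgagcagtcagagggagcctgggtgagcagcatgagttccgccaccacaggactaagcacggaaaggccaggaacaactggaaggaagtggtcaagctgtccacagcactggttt
Start sites were matched for 6 of the 8 members, while Alox5ap and Pou2f3 are named only. The motifs were sought in the 250 bases before the RefSeq start of each, and for Ltc4s the 166 of these that precede the GENCODE gene are shown. AGATAA was found on either strand for 2 members, Rgs13 and Avil, and in 9.99% of all 32851 promoter windows of that length. The octamer ATGCAAAT, bound by POU factors, was found for 0 of the 6 and in 1.60% of all windows. The motif CAAAGTCCA, bound by HNF4 factors, was found for 0 of the 6 and in 0.384% of all windows. A match describes letters in these windows only.

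The table held 27881 cells in 8 sets of cell barcodes, whose numbers did not match the sample titles, so it was treated as 1 pooled sample. No test between samples was possible, and the sets are given as values and ranges. Different sets shared 80 pairs of barcodes. A set held 2280 to 5320 of the 27834 cells kept, with medians of 1695 to 2576 detected genes per cell. Deposited values were whole numbers that did not behave as molecule counts, so the depth behind a value is unknown. A level here is a gene's share, in ppm, of all values summed over a class of cells. The reads come from transcript 3′ ends and carry no length scale, so levels are compared between cells and not between genes. Shares of cells with a value carry 95% intervals from the exact binomial (Clopper-Pearson) method, and these include counting error alone.

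Cells were clustered without the 8 members and without any of the lists used below, and clusters were named from markers. The tuft-like class was 1 cluster of 223 cells, 0.801% of all cells (interval 0.700 to 0.913). It was led by Dgki, Dclk1, St18, Rgs13, Nebl, Lrmp, Sh2d6, Bmx, Fyb and Itprid1, so its own leading genes include 3 members that took no part in naming it. Its 17 naming markers summed to 817 ppm in tuft-like cells and to 56.0 ppm in enterocyte-like cells. The 8 T cell markers were all at 0 in tuft-like cells, and the 6 myeloid markers summed to 0.880 ppm. Markers of other epithelial cells were present: the 9 Paneth markers summed to 7215 ppm in tuft-like and 2990 ppm in enterocyte-like cells, and the 9 goblet markers to 5809 and 3354 ppm. The 14 enterocyte markers summed to 4970 ppm in tuft-like and 53255 ppm in enterocyte-like cells, the 9 stem cell markers to 3719 and 436 ppm, and the 10 transit-amplifying markers to 2236 and 285 ppm. Their part in the tuft-like levels below was not tested. Of 4 mast cell or eosinophil markers only Kit was above 0, at 56.6 ppm. Barcode set 7 gave 206 of the 223 cells, and the other sets gave 0 to 5 each, so tuft-like levels are mainly those of set 7. The other classes were 4979 enterocyte-like, 9309 progenitor-like, 1267 goblet-like, 400 enteroendocrine-like, 161 stomach-like and 16 T cell-like cells, and 11479 cells stayed unnamed. Median detected genes per cell were 1680 in tuft-like, 1651 in goblet-like, 2846 in progenitor-like and 2373 in enterocyte-like cells.

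The goblet-like class held further cells with tuft markers. Over all classes, 272 cells held a value for at least 3 of the 17 tuft naming markers, and 190 of them lay outside the tuft-like class. In set 7, 96 cells of any class held that many, while 206 were tuft-like, so most tuft-like cells of that set did not. In set 4, 53 cells with at least 3 of these markers lay in the goblet-like class, whose leading genes include the member Dclk1. These 53 cells had Dclk1 at 680 ppm, Rgs13 at 164 ppm, Sh2d6 at 188 ppm and Pou2f3 at 81.9 ppm. Their Avil stood at 61.4 ppm, Trpm5 at 28.7 ppm, Alox5ap at 69.6 ppm and Ltc4s at 131 ppm. Ltc4s was found in 32.1% of them (interval 19.9 to 46.3), against 13.9% (9.64 to 19.1) of tuft-like cells. The 53 cells were picked by their tuft markers and the tuft-like class by cluster, so these shares are of groups selected unlike. Enterocyte markers summed to 32541 ppm in the whole goblet-like class and to 4970 ppm in tuft-like cells. Their part in the Ltc4s share was not tested. The group of 53 cells was chosen after the clusters had been seen, and is given as a separate group beside the classes.

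Of the 8 members, 7 were at least 8-fold higher in tuft-like than in enterocyte-like cells, which absorb nutrients on the villus, and Ltc4s was not. Over all genes, 2.58% of the 8733 with a mean of at least 10 ppm were higher in tuft-like cells by that rule, and 3.65% were higher in enterocyte-like cells. The median log2 difference of the 8 members was 4.85, against 0.05 over all these genes. Log2 differences use a pseudocount of 1 ppm, which understates those of low genes. Without rescaling to ppm the median over all genes moved by -0.25. All 7 members were still at least 8-fold higher on that scale. Without set 7, with 17 tuft-like cells left, 484 genes were higher in tuft-like cells, against 225 with all sets, and the same count of members passed.

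**Figure D1:**
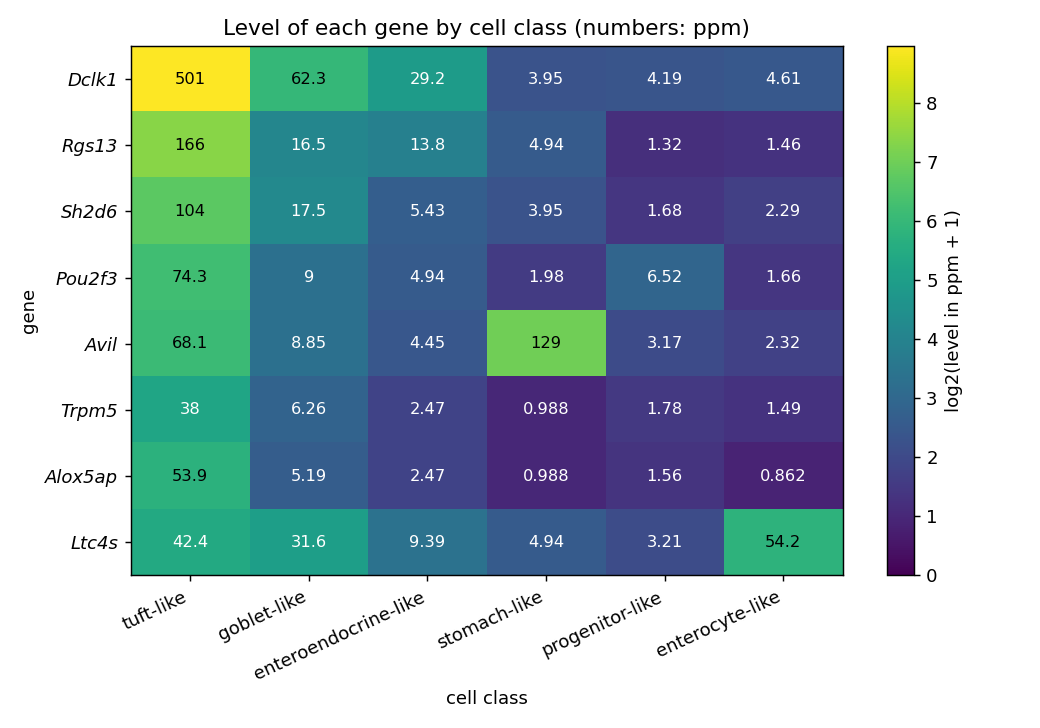
Level of each gene in each cell class, in ppm; colour shows log2(ppm + 1). The tuft-like column is the highest for 6 genes, Avil is highest in stomach-like cells at 129 ppm, and Ltc4s is highest in enterocyte-like cells at 54.2 ppm.

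Among the members of the taste cascade, Trpm5 had 38.0 ppm in tuft-like cells and 1.49 ppm in enterocyte-like cells (log2 difference 3.97). It had a value in 13.5% of tuft-like cells (interval 9.26 to 18.6) and in 0.864% of enterocyte-like cells (0.626 to 1.16). Rgs13 had 166 ppm in tuft-like cells and 1.46 ppm in enterocyte-like cells (6.09). Its share of cells was 39.9% (33.4 to 46.7) in the tuft-like class and 0.803% (0.575 to 1.09) in the enterocyte-like class. In set 7 alone, tuft-like cells had Trpm5 at 27.1 ppm and Rgs13 at 166 ppm. Without set 7 the log2 difference was 5.93 for Trpm5 and 6.08 for Rgs13. In enterocyte-like cells of the 8 sets, Trpm5 ranged from 0 to 2.47 ppm (median 1.08) and Rgs13 from 0.959 to 2.15 ppm (median 1.61). No set of enterocyte-like cells came near the tuft-like level of either gene.

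The cytoskeletal and signalling members behaved alike. Dclk1 had 501 ppm in tuft-like cells and 4.61 ppm in enterocyte-like cells (log2 difference 6.49), and was found in 74.9% (68.7 to 80.4) of tuft-like and 2.37% (1.97 to 2.83) of enterocyte-like cells. Sh2d6 had 104 ppm in tuft-like cells and 2.29 ppm in enterocyte-like cells (5.00), with shares of 29.1% (23.3 to 35.6) and 1.21% (0.921 to 1.55) in the same order of classes. Avil had 68.1 ppm in tuft-like cells and 2.32 ppm in enterocyte-like cells (4.38), with shares of 21.5% (16.3 to 27.5) and 1.25% (0.956 to 1.59). Across the 8 sets, enterocyte-like levels spanned 1.59 to 7.58 ppm for Dclk1, 0.963 to 3.55 ppm for Sh2d6 and 1.03 to 3.62 ppm for Avil. Without set 7 the log2 difference was 6.78 for Dclk1, 6.12 for Sh2d6 and 5.54 for Avil.

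Pou2f3, the lineage factor, had 74.3 ppm in tuft-like cells and 1.66 ppm in enterocyte-like cells (log2 difference 4.82). The 206 tuft-like cells of set 7 had 52.2 ppm and the 5 of set 2 had 958 ppm, and without set 7 the log2 difference was 6.85. It had a value in 19.7% (14.7 to 25.6) of tuft-like cells and in 0.984% (0.729 to 1.30) of enterocyte-like cells. Alox5ap had 53.9 ppm in tuft-like cells and 0.862 ppm in enterocyte-like cells (4.88). Its shares were 18.4% (13.5 to 24.1) of tuft-like cells and 0.522% (0.341 to 0.764) of enterocyte-like cells. Both genes of this pair were low in enterocyte-like cells of every set, at 0.516 to 2.88 ppm for Pou2f3 and 0 to 1.37 ppm for Alox5ap.

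Ltc4s was the exception. It had 42.4 ppm in tuft-like cells and 54.2 ppm in enterocyte-like cells, a log2 difference of -0.35. It had a value in 31 of 223 tuft-like cells (13.9%, interval 9.64 to 19.1) and in 1028 of 4979 enterocyte-like cells (20.6%, 19.5 to 21.8). The direction of this difference changed with the setting: it was 0.39 when enterocyte-like cells were weighted to the detected genes of tuft-like cells, and -0.60 without rescaling. The levels of these 2 classes are therefore not ordered. The part of the enterocyte markers that tuft-like cells held in the Ltc4s level was not tested. In enterocyte-like cells of the 8 sets Ltc4s spanned 37.5 to 68.1 ppm (median 54.6), so each set held it.

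**Figure D2:**
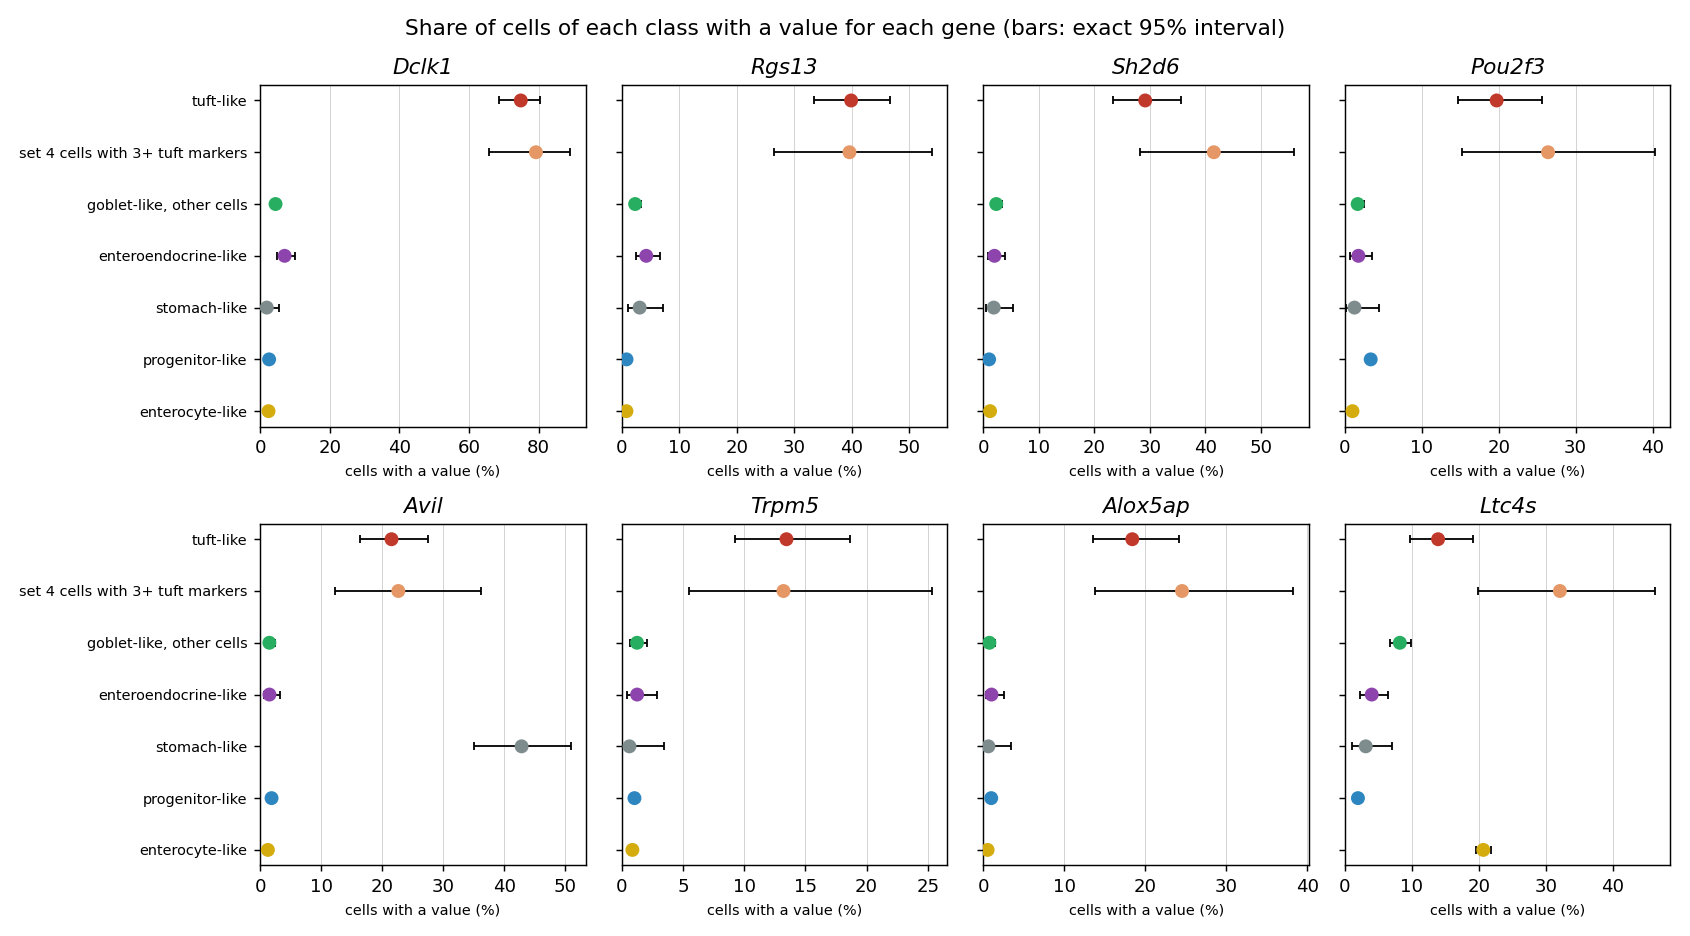
Share of cells with a value for each gene (x axis, percent) in 6 cell classes and in the 53 set 4 cells with at least 3 tuft naming markers; points are shares and bars exact 95% intervals. The 16 T cell-like cells, whose intervals reach 20.6% or more, and unnamed cells are not drawn. The 2 tuft groups stand apart from the other classes drawn for every gene but Avil, where stomach-like cells reach 42.9%, and Ltc4s, where enterocyte-like cells reach 20.6%.

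The ratio of enterocyte-like to tuft-like level was set against the median ratio of the 8 members, and 1 member, Ltc4s, stood at least 4-fold above it. Its log2 distance from the median was 5.20 over all cells and 5.32 in set 7, the set with at least 20 tuft-like cells. The other members lay between -1.63 (Dclk1) and 0.88 (Trpm5), so they did not share 1 ratio either. In progenitor-like cells their shares of cells with a value were 0.816% to 2.54%, except Pou2f3 with 3.35%, and in enterocyte-like cells 0.522% to 2.37%. Set 7, with 206 tuft-like and 201 enterocyte-like cells, had the lowest Dclk1 level in enterocyte-like cells, 1.59 ppm. Trpm5 and Alox5ap were at 0 there. Sh2d6 (2.39 ppm), Rgs13 (1.59 ppm), Avil (1.59 ppm) and Pou2f3 (0.795 ppm) were not at their lowest in that set. Set 1 had 0 cells in the tuft-like class and the highest Dclk1 level in enterocyte-like cells, 7.58 ppm. It did hold 12 cells with at least 3 tuft naming markers. Dclk1 had a value in 1 of its 28 goblet-like cells, with that class at 404 ppm. The source of the low values in enterocyte-like and progenitor-like cells was not tested, and they are not read as expression.

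The members found beside Ltc4s also differed between the classes. Of the 31 tuft-like cells with Ltc4s, 96.8% held at least 1 of the other 7 members, and of the 192 tuft-like cells without it 87.5% did. Avil was found in 58.1% of the tuft-like cells with Ltc4s and in 15.6% of those without. Of the 1028 enterocyte-like cells with Ltc4s, 7.39% held any of the other 7, and of the 3951 without it 7.85% did. Cells with Ltc4s had more detected genes than those without, with medians of 1919 against 1602.5 in tuft-like and 3017 against 2157 in enterocyte-like cells. The part of this in the shares was not tested.

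Few single cells held many members. In the tuft-like class 82 of 223 cells (36.8%, interval 30.4 to 43.5) held at least 3 of the 8, and 24 cells held none. Counting only values of 2 or more, the share was 11.7%. In the other classes at least 3 members were found in 44 of 1267 goblet-like, 10 of 9309 progenitor-like and 5 of 4979 enterocyte-like cells. Leaving Ltc4s aside, 149 cells held at least 3 of the 7 others. Of these 73 were tuft-like, 35 goblet-like, 8 progenitor-like, 5 enteroendocrine-like, 1 enterocyte-like and 27 unnamed, of which 23 lay in a cluster led by globin genes, Retnlb, Agr2 and Spink4. Dclk1 was present in 74.9% of all tuft-like cells, in 75.0% of those with Pou2f3, in 92.7% of those with Alox5ap and in 85.4% to 90.3% of those with each of the other 5.

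A member was called tuft-restricted where it was at least 8-fold higher in tuft-like cells than in every other named class. This held for 2 of the 8, Rgs13 (log2 difference to the nearest class 3.26) and Alox5ap (3.15), and for 0.0707% of 8491 genes of at least 10 ppm in tuft-like cells. The nearest class was the goblet-like one for 6 of the 8 members. Goblet-like cells had Dclk1 at 62.3 ppm and Rgs13 at 16.5 ppm, and after removal of cells with at least 3 tuft naming markers at 18.9 ppm and 6.55 ppm. With the goblet-like class so reduced, 6 of the 8 were tuft-restricted: Dclk1 (4.06), Alox5ap (3.98), Sh2d6 (3.66), Rgs13 (3.49), Trpm5 (3.39) and Pou2f3 (3.32). This reduction was chosen after the data were seen and takes out cells by their tuft markers. With all goblet-like cells but without set 7, 6 of the 8 passed, and without set 4, 5 did. At a finer clustering 0 of the 8 passed, with Rgs13 at 2.99 and Dclk1 at 2.92. Avil and Ltc4s did not pass under any setting run. The share over all genes was computed only for the count of 2. Counts under the other settings have no such share to be read against.

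Avil fell furthest short of the 8-fold rule against stomach-like cells, a cluster of 161 cells led by Tff1, Gkn2, Gkn1 and Muc5ac, genes of the gastric surface. Avil also missed the rule against T cell-like cells (log2 difference 1.28) and goblet-like cells (2.81). The T cell-like level, 27.5 ppm, came from 1 of 16 cells. Avil had 68.1 ppm in tuft-like cells and 129 ppm in stomach-like cells, a log2 difference of -0.92. It was present in 48 of 223 tuft-like cells (21.5%) and in 69 of 161 stomach-like cells (42.9%, interval 35.1 to 50.9). By set, stomach-like cells had Avil at 0 to 184 ppm (median 109). The value 0 came from a set with 1 such cell, and the sets with 9 or more had 65.4 to 184 ppm. None of the other members exceeded 4.94 ppm in stomach-like cells. Without set 7 the tuft-like class held 17 cells, and the log2 difference of Avil was 0.07, so the order of these 2 classes rests on that set.

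Ltc4s in enterocyte-like cells fell along a score that stands in for intestinal position, since the tags of the pieces were not used. The score was the mean of 8 distal scoring genes minus that of 8 proximal ones, no member among them. It was taken from an earlier account of these same data. The distal genes were Clec2h, Naaladl1, Tmigd1, Prss30, Muc3, Plb1, Cubn and Amn. The proximal genes were Gsta1, Adh6a, Ms4a10, Cyp2d26, Hsd17b6, Gda, Cyp2c66 and Cyp2b10. Cells of each set were divided into 3 equal parts. Ltc4s had 104 ppm in the proximal part, 31.6 ppm in the middle and 13.5 ppm in the distal part. The log2 difference of proximal over distal was 2.85, with the same direction in 8 of 8 sets (lowest 1.67, median 3.02, highest 7.18, SD 1.63). Over all 8025 genes considered, 11.2% were called higher in the proximal part and 8.57% in the distal part, so a regional difference of this kind is common. These were 899 and 688 genes, and without rescaling 1948 and 301. A call needs at least 10 ppm, a log2 difference of at least 1 and one direction in all 8 sets.

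In the proximal part 42.9% of cells held Ltc4s (interval 40.5 to 45.3), in the middle 13.7% (12.05 to 15.4) and in the distal part 5.31% (4.28 to 6.51). Sets 1 to 8 had 90.7, 79.3, 98.9, 81.3, 92.9, 132, 144 and 122 ppm in the proximal part. The same sets had 13.8, 6.92, 13.6, 10.0, 28.6, 14.1, 0 and 12.2 ppm in the distal part. The parts did not overlap: the lowest proximal set stood above the highest distal one. The share of all genes whose parts did not overlap was not computed. Over 10 equal parts the level went down at every step, with 140 ppm in the most proximal, 37.0 ppm in the fifth and 7.09 ppm in the most distal part. The share of cells stood at 59.2% at the proximal and 2.63% at the distal end.

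**Figure D3:**
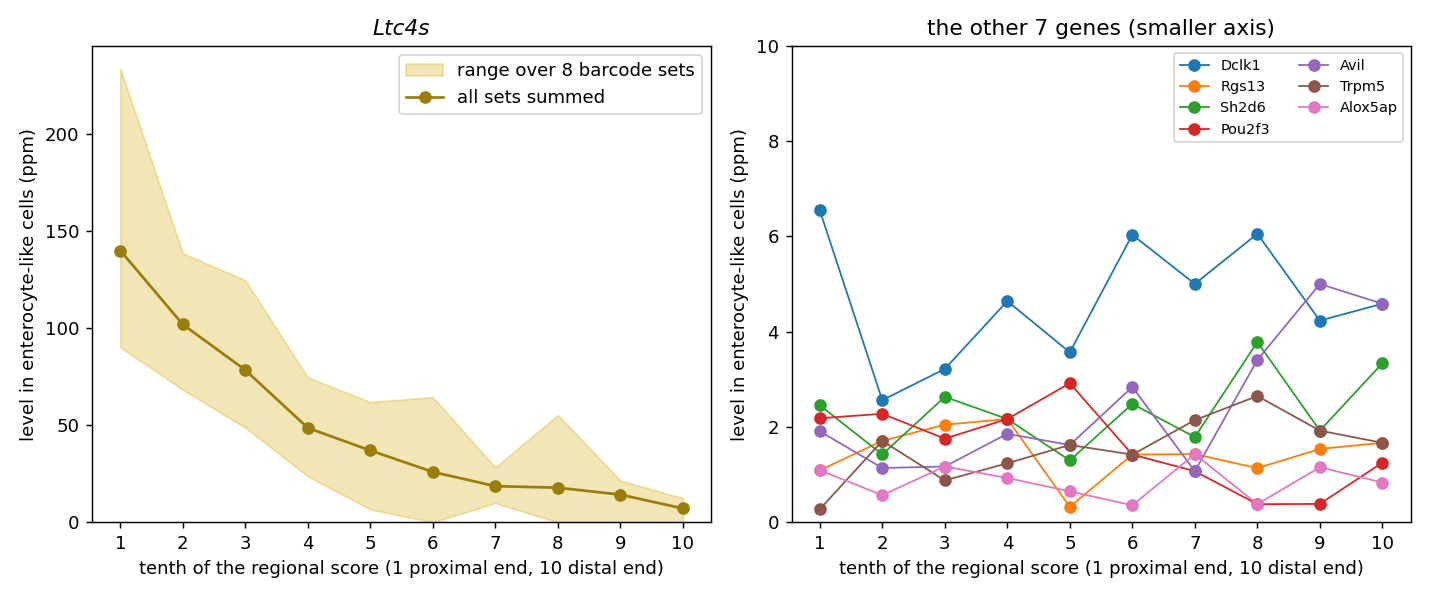
Level in enterocyte-like cells (y axis, ppm) over 10 equal parts of the regional score (x axis, proximal to distal), for Ltc4s with the range over 8 barcode sets (left) and for the other 7 genes (right, smaller axis). Ltc4s is at 140 ppm at the proximal end and 7.09 ppm at the distal end, while the other genes stay under 7 ppm throughout.

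The proximal and distal parts also differed in cluster and depth. Of proximal cells 62.9% came from the cluster led by Reg1 and S100g and 35.3% from the one led by Leap2 and G0s2, while 92.1% of distal cells came from the cluster led by Plb1 and Grin2a. Ltc4s stood at 41.5 ppm in the cluster led by Reg1, 144 ppm in that led by Leap2 and 11.9 ppm in that led by Plb1. Within the single clusters, in the same order, the log2 difference was 2.55, 0.84 and 0.72, positive in 8 of 8 sets in each. Median detected genes were 2863.5 in the proximal and 1745 in the distal part. With both ends weighted to a common distribution of detected genes the difference was 1.94, again in 8 of 8 sets. When only the distal scoring genes were used it was 1.16, in 6 of 8 sets, and the level was highest in the middle part (58.2, 75.7 and 25.5 ppm from proximal to distal), so the call depended on the proximal scoring genes. With those alone it was 3.82.

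Markers of other cell types moved with the parts as well. The 9 goblet markers summed to 1658 ppm in the proximal and 5753 ppm in the distal part, and the 9 Paneth markers to 1232 and 5794 ppm. In the same order, the 9 stem cell markers summed to 188.09 and 829.33 ppm, and the 10 transit-amplifying markers to 185.43 and 386.36 ppm. The 14 enterocyte markers went the other way, with 62150.42 and 55280.81 ppm. Ltc4s was low in progenitor-like cells (3.21 ppm). The part of stem cell and transit-amplifying content in its regional difference was not tested. The 17 tuft naming markers were nearly level, at 58.0 ppm in the proximal and 51.0 ppm in the distal part. After removal of all cells with any of the other 7 members, the Ltc4s difference was 2.88. Without rescaling it was 3.27, on a scale where the median of all genes moved by 0.42.

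The other 7 members were under 10 ppm at both ends and were not considered for a call. Their log2 differences ran from -0.98 (Avil, with 1.46 ppm in the proximal and 3.84 ppm in the distal part) to 0.95 (Pou2f3, with 2.06 and 0.582 ppm). In progenitor-like cells Ltc4s had 3.68 ppm in the proximal and 3.23 ppm in the distal part (0.14), and 40.5% of these cells had a score of 0, which limits their division.

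Tuft-like cells could be divided only in set 7, with 69, 69 and 68 cells from proximal to distal. Ltc4s had 47.2, 53.3 and 22.2 ppm in these parts and was found in 15.9% (interval 8.24 to 26.7), 15.9% (8.24 to 26.7) and 7.35% (2.43 to 16.3) of cells. The intervals overlap, so a gradient was not detectable with this number of cells. Dclk1 was found in 79.7%, 72.5% and 73.5% of cells from proximal to distal. Pou2f3 was found in 20.3%, 8.70% and 23.5% of cells, and the shares of the other 5 members differed by less than their intervals. A score of 0 was held by 30.9% of tuft-like cells.

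Ltc4s differed between progenitor-like and enterocyte-like cells, and the low values of Pou2f3 and Alox5ap went in the opposite direction. Ltc4s had 3.21 ppm in progenitor-like cells and 54.2 ppm in enterocyte-like cells, a log2 difference of -3.71. Across sets it spanned 2.63 to 4.52 ppm (median 3.32) in progenitor-like cells and 37.5 to 68.1 ppm (median 54.6) in enterocyte-like cells, with no overlap. Of the 9435 genes averaging at least 10 ppm, 14.5% were at least 2-fold higher in enterocyte-like and 30.0% in progenitor-like cells. Among the members only Ltc4s reached that mean, so these shares do not cover the others. Pou2f3 had 6.52 ppm in progenitor-like cells and 1.66 ppm in enterocyte-like cells (1.50), with the same direction in 8 of 8 sets. It spanned 4.22 to 8.41 ppm (median 6.28) in progenitor-like cells and 0.516 to 2.88 ppm (median 1.89) in enterocyte-like cells. The sets thus did not overlap, but both levels lie under the 10 ppm minimum of a call. As above, such low values are not read as expression. The share of all genes with sets that do not overlap, or with 1 direction in all 8 sets, was not computed for these classes. Weighted to the detected genes of progenitor-like cells, the Pou2f3 difference was 1.51. Alox5ap was higher in progenitor-like cells in 8 of 8 sets too, with 1.56 ppm against 0.862 ppm in enterocyte-like cells (0.46). For the other 5 members the log2 differences lay between -0.29 and 0.33.

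**Figure D4:**
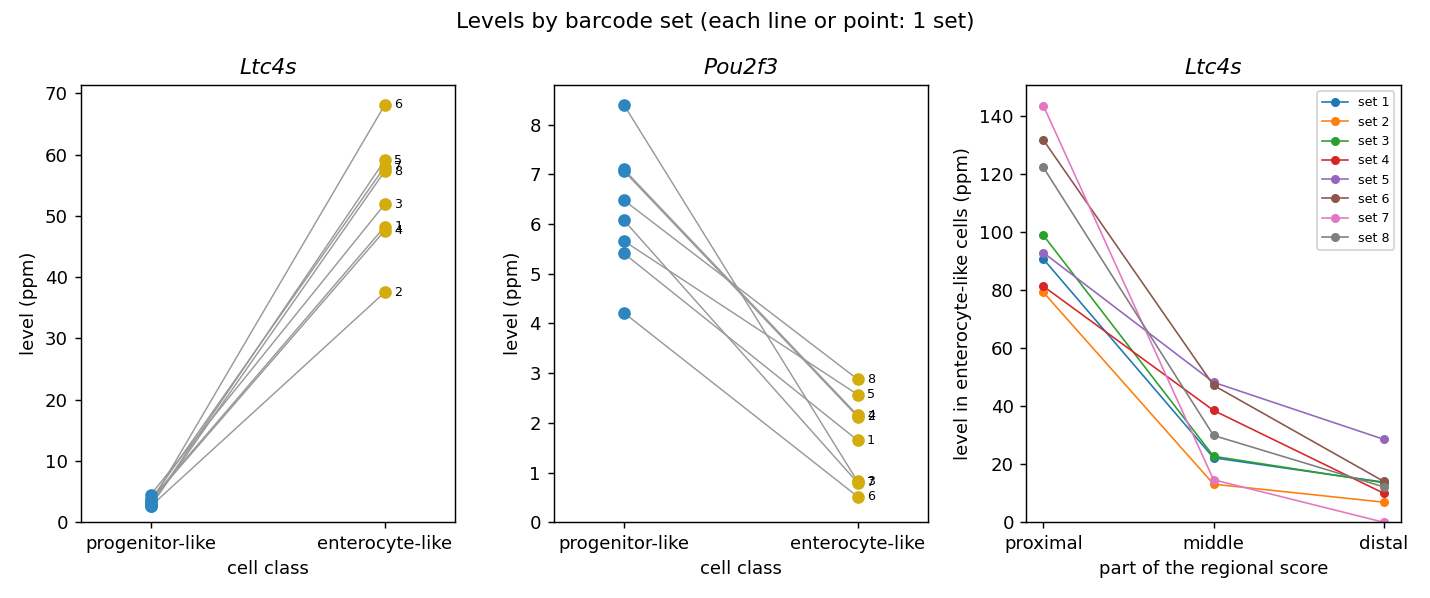
Levels (y axis, ppm) by barcode set for Ltc4s and Pou2f3 in progenitor-like and enterocyte-like cells and for Ltc4s in 3 parts of the regional score in enterocyte-like cells; each point is 1 set. Ltc4s is higher in enterocyte-like cells and Pou2f3 in progenitor-like cells in each of the 8 sets.

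In goblet-like cells without the tuft-marker cells Ltc4s had 26.2 ppm and was found in 8.20% of cells. By set, this level spanned 0 to 34.8 ppm (median 10.7). Dclk1 had 18.9 ppm there, but in set 7 Ltc4s had 17.2 ppm and Dclk1 1.07 ppm, and in set 5 Ltc4s had 11.5 ppm and Dclk1 0. The 14 enterocyte markers summed to 32541 ppm in the whole goblet-like class, against 53255 ppm in enterocyte-like cells, and their part in the Ltc4s level was not tested. Enteroendocrine-like cells had 9.39 ppm.

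The rest of the leukotriene pathway was divided between the classes. The list held 14 genes of the table, of which 7 had a mean of at least 10 ppm. By the 8-fold rule 1 was higher in tuft-like cells and 2 in enterocyte-like cells, and the median log2 difference was -1.30, against 0.05 over all genes. The one higher in tuft-like cells was Pla2g4a, the phospholipase that frees arachidonic acid, with 72.5 ppm in tuft-like cells, 87.8 ppm in progenitor-like cells and 3.75 ppm in enterocyte-like cells. The 2 higher in enterocyte-like cells encode enzymes that cleave glutathione conjugates at the cell surface. They were Ggt1, a gamma-glutamyl transferase (7.96 ppm in tuft-like and 395 ppm in enterocyte-like cells), and Dpep1, a dipeptidase (16.8 and 218 ppm).

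Alox5, the 5-lipoxygenase, fell under the minimum mean, with 17.7 ppm in tuft-like cells and 0.50 ppm in enterocyte-like cells. Lta4h, which makes leukotriene B4, had 85.7 ppm in tuft-like cells and 169 ppm in enterocyte-like cells. Mgst2 and Mgst3, membrane glutathione transferases related to Ltc4s, had 115 and 281 ppm in tuft-like cells, against 300.05 and 694 ppm in enterocyte-like cells. Summed over all sets, enterocyte-like cells thus held Ltc4s with Alox5 and Alox5ap each under 1 ppm. In single sets Alox5ap reached up to 1.37 ppm.

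**Figure D5:**
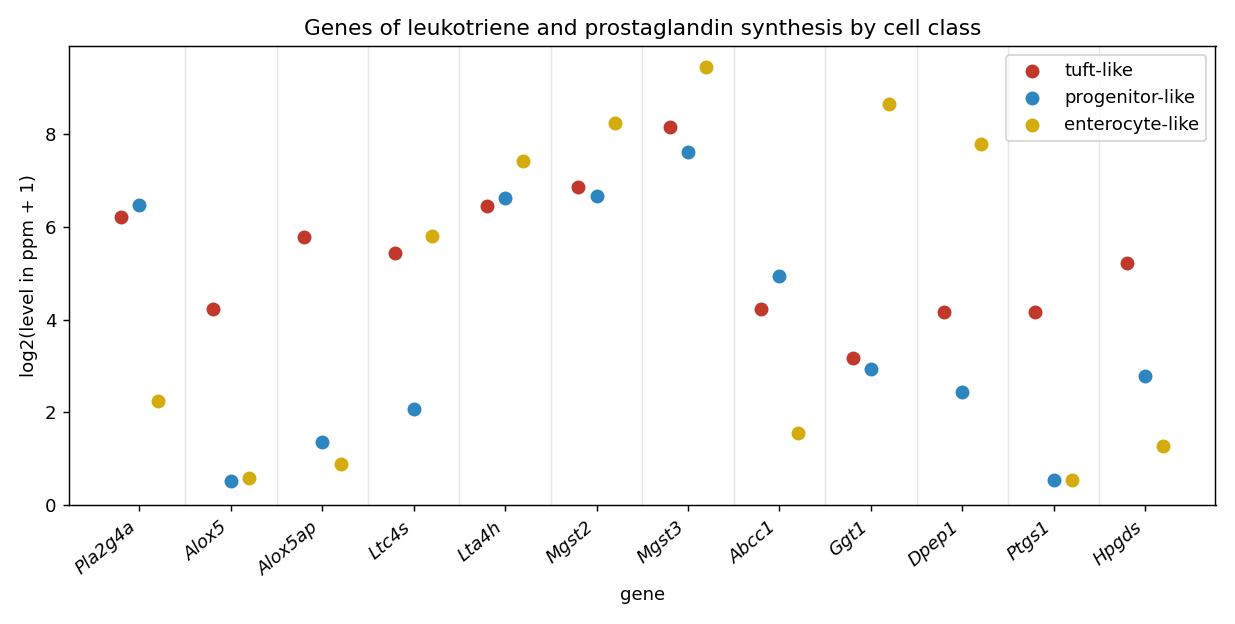
Level, as log2(ppm + 1), of genes of leukotriene and prostaglandin synthesis in tuft-like, progenitor-like and enterocyte-like cells. Alox5, Alox5ap, Ptgs1 and Hpgds are high in tuft-like cells, Ggt1 and Dpep1 in enterocyte-like cells, and Ltc4s in both.

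Along the regional score, 3 of the 8 genes of this list that could be considered were called higher in the proximal part and 1 in the distal part of enterocyte-like cells. Over all 8025 genes considered, 11.2% were called proximal and 8.57% distal. Mgst3 had 997 ppm in the proximal and 287 ppm in the distal part (log2 difference 1.79), Mgst2 had 399.5 and 185 ppm (1.11), and the leukotriene B4 receptor gene Ltb4r2 had 22.4 and 8.50 ppm (1.30). Dpep1 had 151 ppm in the proximal and 349 ppm in the distal part (-1.20).

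Of the prostaglandin branch, 9 genes were in the table and 5 could be considered. Among these Hpgds, the prostaglandin D synthase, was higher in tuft-like cells (36.2 ppm, and 1.43 ppm in enterocyte-like cells), and none was higher in enterocyte-like cells. Ptgs1, cyclooxygenase 1, had 16.8 ppm in tuft-like cells and 0.460 ppm in enterocyte-like cells. Of the chemosensory cascade 7 of 17 genes could be considered and 1 was higher in tuft-like cells, Gng13, a G protein gamma subunit (25.6 ppm, and 0.300 ppm in enterocyte-like cells). The phospholipase Plcb2, which couples taste receptors to Trpm5, had 13.3 ppm in tuft-like and 0.170 ppm in enterocyte-like cells. The receptor genes Tas1r1, Tas1r3 and Vmn2r26 were listed at 0 in tuft-like cells, and the succinate receptor Sucnr1 had 0.880 ppm.

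Of the type 2 list, which holds cytokine receptors and effectors, 3 of 12 genes could be considered and 0 passed in either direction. Il13ra1 had 113 ppm in tuft-like and 90.3 ppm in enterocyte-like cells. Irf7 (9.72 and 46.4 ppm) and Il4ra (5.30 and 25.2 ppm) were lower in tuft-like cells. Chat, the acetylcholine-making enzyme, fell under the minimum mean, with 16.8 ppm in tuft-like cells and 0.100 ppm in enterocyte-like cells. Ptprc, which encodes the CD45 that the sort selected against, had 7.96 ppm in tuft-like cells. Of the transcription factor and cytoskeleton list, 7 of 12 could be considered, and 4 were at least 8-fold higher in tuft-like cells. Over all genes considered, 2.58% were. The 4 were Sox9 (160.0 ppm, and 11.5 ppm in enterocyte-like cells), Runx1 (111 and 4.01 ppm), Cd24a (319 and 24.7 ppm) and Tubb5 (258 and 23.6 ppm). The rest differed by less than 8-fold. Krt18 (402 and 64.6 ppm) was higher in tuft-like cells, while Vil1 (229 and 1112 ppm) and Espn (38.0 and 201 ppm) were lower. Sox9 and Tubb5 were also high in progenitor-like cells, at 143 and 292 ppm, and Tubb5 is 1 of the 10 transit-amplifying markers.

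For each member the genes with the most similar level over the 18 clusters of at least 50 cells were sought, by Pearson's r of log2(ppm + 1), given as a description. Dgki, a diacylglycerol kinase gene, came first for Dclk1 (r = 0.979), Rgs13 (0.979) and Sh2d6 (0.964), with Pik3cg and Itprid1 or Rgs22 next. Pik3r5 (0.907), Itprid1 and Bmx came first for Trpm5, and Fyb (0.952), Plcb2 and Chat for Alox5ap. Vav1 (0.915), Smpx and Strip2 came first for Pou2f3. For Avil the first was Runx1 (0.896), which had 111 ppm in the tuft-like and 183 ppm in the stomach-like cluster, then Plxna4 and Mcub. For Ltc4s the first were Adh1 (0.883), Sod1 (0.873) and Cd36 (0.860), each highest in an enterocyte-like cluster. Bmx, Fyb and Vav1 helped to name the tuft-like cluster, and all points share the table and its scaling. Over the 10 parts of the regional score the genes most like Ltc4s were Lpgat1 (0.999), an acyltransferase gene, Rbp2 (0.997), which encodes a cytoplasmic retinol-binding protein, and Serf2 (0.995).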

How the data were processed

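Single-cell 3′ RNA sequencing of sorted mouse small intestinal epithelium was analysed from the diet table. Per the submitters' processing notes, reads were handled with Cell Ranger on the mm10 mouse build. The version was not given in the sources used here, nor was the step that made the values. The deposited values were treated as a score, not as counts: the value 2 outnumbered the value 1 in 25.3% of cells, and cell totals spanned 2764 to 9739. For that reason cells were not thinned to a common depth and no count model was used.

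A filter of 500 or more detected genes and no more than 25% mitochondrial values removed 2 cells. Scrublet in scanpy 1.11.5 (expected rate 0.06) marked 45 cells (0.161%), too few for a working caller, so doublets may remain. The other 27834 cells were scaled and log-transformed. Their 2000 most variable genes, with 72 member and list genes left out, gave 30 principal components, and leidenalg 0.10.2 made the clusters (15 neighbours, resolution 1). Other software was igraph 0.11.9, matplotlib 3.10.9, pandas 2.3.3, numpy 2.4.6, scikit-learn 1.9.0, scipy 1.17.1 and Python 3.11.15.

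A cluster was named where a list had 3 or more markers that stood 2-fold or more above all other cells at 10 ppm or more, and the median log2 difference of the list exceeded that of any rival by 0.5. A cluster of 2711 cells led by globin genes passed for red blood cells but stayed unnamed, since epithelial genes also led it. The members and lists were chosen with earlier results of these data known. The text names the 8 members, genes of the lists, and the 3 genes most like each member; list genes under 10 ppm in both classes and a few cluster leaders were named after their values were seen. No test was made, since nothing maps cells to samples. The alternatives are given in the closing section.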

Additional observations from a re-analysis of the deposited data

Results flagged for a closer look

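Values by barcode set were checked for a set that stood far from the other 7, in 19 groups of values, and 2 were found; chance alone marks about 1 in 20 groups.

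The share of tuft-like cells was 3.87% in set 7, against a median of 0.097% over the sets. The same set held 318 of the 400 enteroendocrine-like cells. The log2 difference of Ltc4s between the proximal and distal parts of enterocyte-like cells was 7.18 in set 7, against a median of 3.02. Set 7 held 201 enterocyte-like cells, the fewest of any set, and Ltc4s was listed at 0 in its distal part, so this value depends on the pseudocount. Without set 7 the difference over all cells was 2.76.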

How the results depend on the processing

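In each alternative run that gave a tuft-like class, 7 of 8 members were at least 8-fold higher in tuft-like than in enterocyte-like cells, and Ltc4s alone stood at least 4-fold above the median enterocyte-like to tuft-like ratio of the 8. At resolution 0.5 no cluster was tuft-like, so it gave no such value. The number of tuft-restricted members, 2, was 0 at resolution 2, 5 with tuft-like cells taken by at least 3 naming markers per cell, 6 without set 7, 5 without set 4, 6 with the goblet-like class reduced and 5 with the 53 set 4 cells added (the last pair chosen after seeing the data). For the alternatives, the share of all genes passing that rule was not computed. Without set 7, 484 genes were higher in tuft-like cells, against 225, and the 17 cells left gave log2 differences of 5.93 for Trpm5, 5.54 for Avil, 6.12 for Sh2d6 and 6.85 for Pou2f3. At values of 2 or more, 11.7% of tuft-like cells held at least 3 members.

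The log2 regional difference of Ltc4s, 2.85, was 1.16 when only distal scoring genes were used, and, chosen after seeing the data, 0.72 in the cluster led by Plb1 and 0.84 in that led by Leap2; the other alternatives gave 1.94 to 3.82. The causes were not tested. Genes called proximal numbered 899, against 414 with the proximal scoring genes alone, 566 at a pseudocount of 10 ppm, 479 with weighted ends, 1482 at resolution 0.5, 1475 with unnamed enterocyte-led clusters added and 1948 without rescaling. Genes called distal numbered 688, and 301 without rescaling.

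No paired analysis was possible because no groups of samples are compared and nothing maps the barcode sets to samples. Differences between classes or parts within a set are given as values with their range, and no test was made on them. The number of tuft-like cells and the unknown depth limit what can be seen within the class.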
